A study of Mus musculus with 62 samples.

Results

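The comparison described here is between hippocampi of 12-month-old APP NL-G-F mice and hippocampi of C57BL/6J wild-type (WT) mice of the same age, measured as long RNA in 3 libraries a group. These 6 libraries, chosen by their titles, are among 62 in the series, which also holds long-RNA and short-RNA libraries of both genotypes at 3 and 6 months and libraries of HT-22 cells, a mouse hippocampal line. Each library came from the left and right hippocampus of a separate mouse, and the labels place 12 months at the end stage of amyloid pathology. The sex of the animals is not in the labels. For the comparison between ages, 3 APP and 3 WT mice of 6 months and 3 APP and 2 WT mice of 3 months were used, all untreated as far as the labels say. Differences are therefore between group means over single mice, whose spread enters the standard errors. In bulk tissue fewer cells of a type cannot be told apart from less RNA per cell.

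In APP NL-G-F mice the endogenous App gene carries a humanised amyloid-beta sequence with familial Alzheimer mutations, so that amyloid deposits form without a transgene promoter. Around amyloid plaques, microglia, the resident phagocytes of the brain, are known to leave their resting state through the receptor Trem2 and its adaptor Tyrobp and to express a set of lipid, lysosomal and antigen-presentation genes. Astrocytes near plaques become reactive and raise the intermediate filament Gfap. Complement, Fc receptors, cathepsins and class I and II MHC molecules take part in recognising, engulfing and degrading material.

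At 12 months, 77 genes were higher in APP and 0 were lower at an adjusted p below 0.05 (limma with Benjamini-Hochberg adjustment over 17148 genes), which is 0.449% of the genes tested. They were led by microglial genes: the cystatin Cst7, the beta-glucan receptor Clec7a, the MHC class II invariant chain Cd74, the integrin Itgax and the chemokine Ccl6. Reactive astrocyte genes (Gfap, Serpina3n, Vim), complement (C4b, C1qa, C1qb, C1qc) and lysosomal proteases (Ctss, Ctsd, Ctsz) rose as well. No member of the lists for neurons, myelin, oligodendrocyte precursors, vessels, heat shock proteins or amyloid processing was called. At an unadjusted p below 0.05 there were 829 higher and 417 lower genes, and the lowest adjusted p of any gene lower in APP was 0.0664. Changes are given as log2 differences of TPM + 1, where TPM is the length-adjusted transcript abundance deposited by the authors, scaled between libraries, and on this scale genes at low levels show less change than on a linear one.

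The number of called genes depended on every library. Without APP mouse 1, 2 or 3 the count was 22, 46 and 34, and without WT mouse 1, 2 or 3 it was 41, 41 and 39. In these 6 fits 18 of the 77 genes were called each time, among them Cst7, Cd74, Ccl6, Gpnmb, Gfap, Fcgr2b, Ctss, Ctsz, Ctsd and Hexa, and 24 were called in none, among them Slc11a1, Lyz2, Cd68, H2-D1, Vim, Csf1 and Grn. When the 6 libraries of 12 months were fitted without the other ages, 77 genes were again called, 55 of them shared. Ccl6, Cst7 and Gpnmb were called under each of the 17 alternatives.

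**Figure D1:**
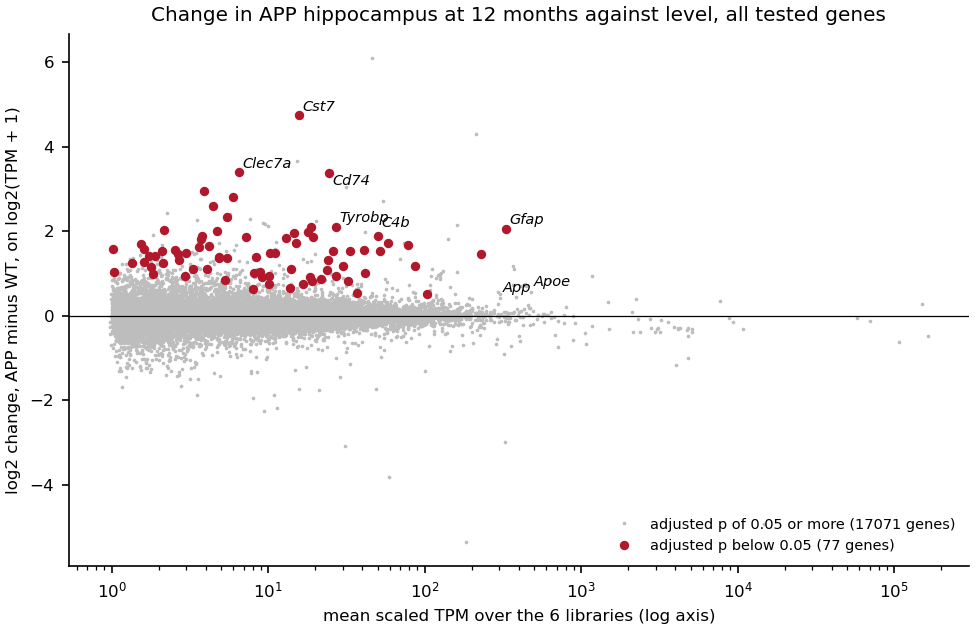
Log2 change (APP minus WT at 12 months) against mean scaled TPM over the 6 libraries on a log axis, one point a gene for 17148 genes. The 77 called genes, in red, all lie above 0 and include Cst7 at 4.74, while App and Apoe lie among the genes that were not called.

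Sequencing depth and gene counts overlapped between the groups, while genes of the sex chromosomes stood apart. The main axis of variation among the 6 libraries (principal component 1, X and Y genes left out) held 28.9% of the variance. On it APP libraries lay at -23.8 to -18.6 and WT libraries at 13 to 27.7. Relative depth (read coverage per unit of FPKM, in arbitrary units) was 1.48 to 2.02 over the 6 libraries, and 16437 to 18965 genes had a TPM of at least 1. Protein-coding genes held 34.4% to 36.0% of TPM in APP and 29.8% to 37.5% in WT. On TPM as deposited the median change of all genes was 0.12, against 0.00 after scaling, and 115 genes were then higher and 1 lower. Xist, the RNA that silences an X chromosome, was at 104 to 117 in the APP libraries and at 0.266 to 0.352 in the WT libraries of 12 months. The Y-linked genes Ddx3y, Uty, Kdm5d and Eif2s3y were at 10.5 to 27.1 in those WT libraries and at most 0.0795 in APP. At 12 months genotype and this sex-chromosome pattern therefore cannot be told apart, for any gene. Genes of X and Y were left out of the test, which does not separate genotype from this pattern for the other genes. WT mice of 3 months had Xist at 91.5 and 92.4. Against these 2 libraries, which match the APP mice in Xist but not in age, 124 genes (0.723%) were higher in APP at 12 months, and 63 of the 77 were among them. The same 3 APP libraries enter both comparisons, so this overlap is a description.

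Cst7, which encodes an inhibitor of lysosomal cysteine proteases, had the largest change. Its scaled TPM was 36.3, 25.5 and 32.5 in APP mice 1 to 3 and 0.242, 0 and 0.396 in WT mice 1 to 3 (log2 change 4.74, SE 0.58, adjusted p = 0.00276 by limma). All APP libraries lay above all WT libraries, and the gene passed the filter on low values through the APP group alone. Clec7a was at 16.2, 8.85 and 13.4 in APP against 0.496, 0.0967 and 0.296 in WT (3.39, SE 0.57, adjusted p = 0.013 by limma). It is annotated as a polymorphic pseudogene in GENCODE M21, the annotation that the files match. Itgax, the CD11c integrin chain, was at 8.89, 6.92 and 7.29 against 0.305, 0.0670 and 0. Ccl6 was at 14.6, 9.42 and 9.63 against 0.846, 0.574 and 0.740. For both genes the lowest APP library stood more than 6 TPM above the highest WT library.

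The sequences upstream of these 4 genes are shown because their transcripts moved together and microglial promoters are known to bind the factor PU.1. Each is 250 bases ending at the base before the RefSeq start site, on the gene's strand (RefSeq, build GRCm38.p6). Capitals mark the letters GAGGAA on either strand, the form of the PU.1 core that was searched for.
Cst7, chr2:150570165-150570414, plus strand: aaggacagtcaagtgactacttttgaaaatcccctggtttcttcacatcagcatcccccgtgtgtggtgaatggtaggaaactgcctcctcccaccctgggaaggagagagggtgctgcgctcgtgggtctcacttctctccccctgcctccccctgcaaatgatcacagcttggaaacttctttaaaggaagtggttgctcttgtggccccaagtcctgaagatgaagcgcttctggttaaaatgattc
Clec7a, chr6:129472780-129473029, minus strand: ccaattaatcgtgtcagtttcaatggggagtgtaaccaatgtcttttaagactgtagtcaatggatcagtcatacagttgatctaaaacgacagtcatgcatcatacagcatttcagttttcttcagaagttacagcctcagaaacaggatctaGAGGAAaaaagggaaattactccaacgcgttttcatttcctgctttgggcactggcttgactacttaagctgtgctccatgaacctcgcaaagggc
Itgax, chr7:128129300-128129549, plus strand: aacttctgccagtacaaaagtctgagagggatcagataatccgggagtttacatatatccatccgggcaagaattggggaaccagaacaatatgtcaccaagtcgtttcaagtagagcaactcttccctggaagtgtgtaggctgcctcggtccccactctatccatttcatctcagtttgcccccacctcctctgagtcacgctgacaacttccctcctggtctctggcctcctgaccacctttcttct
Ccl6, chr11:83593088-83593337, minus strand: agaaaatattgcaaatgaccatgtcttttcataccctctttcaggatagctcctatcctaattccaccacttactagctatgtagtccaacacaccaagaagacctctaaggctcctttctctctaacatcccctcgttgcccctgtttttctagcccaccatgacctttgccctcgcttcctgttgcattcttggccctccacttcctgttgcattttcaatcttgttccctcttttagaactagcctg
In these bases, Clec7a held GAGGAA once, starting 96 bases before the start site, and the other sequences did not hold these exact letters. Other forms of a PU.1 site were not searched for. None of them held the interferon-stimulated response element core GAAANNGAA or the E-box CACGTG. Of the 77 called genes, 61 matched the RefSeq promoter table, and 29 of their windows (47.5%), which run to 50 bases past the start site, held GAGGAA, against 28.3% of the 32851 windows in the table. GAAANNGAA was in 9 of 61 (14.8%) against 8.6% of all windows, and CACGTG in 2 of 61 (3.3%) against 7.2%. These are matches of letters on both strands, with no test and no measure of binding.

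**Figure D2:**
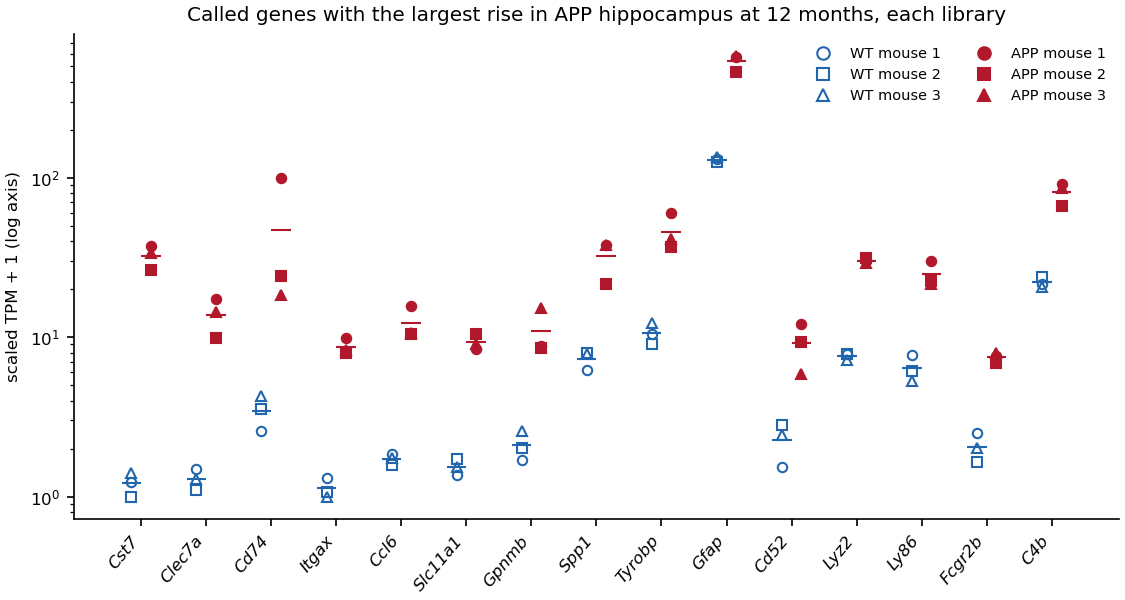
Scaled TPM + 1 (log axis) of the 15 named genes with the largest change, each library as 1 point, WT open and APP filled, and bars at the group means. The genes were chosen for groups that do not overlap, and APP mouse 1 stands apart for Cd74, at 98.3 against 23.3 and 17.3.

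Of the list of plaque-associated microglial genes, 26 in all, 22 were tested, 10 were higher and none lower. Over all tested genes 0.449% were called, a share to set beside the count of each list below. The median change of the tested members was 0.86, beside 0.00 over all tested genes, and 18 had every APP library above every WT library, as 9.03% of all genes did. Members such as Cst7 and Clec7a passed the filter only because they were high in APP. Across the 77 called genes, 20 had a WT mean below 1 TPM and 57 had at least 1 TPM in both groups. Gpnmb, a glycoprotein of phagocytes, was at 7.82, 7.54 and 14.2 in APP and 0.705, 1.01 and 1.58 in WT (log2 change 2.34). Spp1, the secreted protein osteopontin, was at 36.6, 20.5 and 36.8 against 5.22, 6.89 and 6.80 (2.11). Cd52 rose by 1.99, Lyz2 (a lysozyme with a near-identical neighbour, Lyz1, between which reads may be split) by 1.99, Cd9 by 1.01 and the growth factor Csf1 by 0.93.

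The signalling axis that leads into this state showed its adaptor as called and its receptor as uncalled. Tyrobp was at 59.0, 35.7 and 40.0 in APP and 9.53, 8.01 and 11.2 in WT (log2 change 2.09, SE 0.31, adjusted p = 0.00739 by limma). Trem2, named after its values were seen, was at 21.3, 13.2 and 17.1 against 5.39, 6.03 and 3.69. Its libraries did not overlap, but the change of 1.59 (SE 0.44) had an adjusted p of 0.222 by limma. Of 14 tested members of the Trem2 signalling list, Tyrobp was the called one. In 13 of them every APP library lay above every WT library, as for 9.03% of all genes. Of the members, the kinase Syk had a change of 0.47 and the phospholipase Plcg2 one of 0.58, neither of them called.

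Some resting-state microglial genes rose and others were not called. Of 14 tested members, 4 were higher, Fcrls, Csf1r and Olfml3 among them, none was lower, and the median change was 0.43. Fcrls, an Fc receptor-like protein of microglia, was at 20.1, 24.0 and 27.5 in APP and 6.05, 6.47 and 6.84 in WT. Csf1r, the receptor on which microglial survival depends, was at 36.4, 33.3 and 38.1 against 20.1, 19.2 and 16.0. The purinergic receptor P2ry12, also named after its values were seen, was at 19.7, 22.4 and 17.98 against 22.3, 19.5 and 16.9, with overlapping groups (change 0.04, SE 0.17). Tmem119 had a change of 0.26 and Sall1 one of 0.23, and neither passed the test. Cx3cr1, the fractalkine receptor, was at 8.24, 24.9 and 8.82 in APP and 12.1 to 15.9 in WT, so that APP mouse 2 lay above and the other APP mice below the WT range. Among 10 tested microglial transcription factors, Irf8 rose by 1.37 (10.3, 6.45 and 5.67 against 1.94, 1.504 and 3.39). Spi1, which encodes PU.1, had a change of 1.00 with an adjusted p of 0.428 by limma.

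The complement list held the chains of C1q, C4b and 2 receptors among its called genes. Of 17 tested members, 6 were higher (C1qa, C1qb, C1qc, C4b, C3ar1 and the integrin chain Itgax) and none lower, with a median change of 1.12. Over all tested genes 0.449% were called. C1qa, a chain of the recognition molecule C1q, was at 120.1, 68.9 and 82.9 in APP and 26.7, 27.0 and 24.5 in WT, and its partner chains C1qb and C1qc rose by 1.52 and 1.54. C4b was at 90.7, 65.6 and 84.6 against 20.5, 22.8 and 19.7 (log2 change 1.87), with the near-identical C4a next to it, so that the split of reads between them is uncertain. C3ar1, the receptor for the C3a fragment, rose by 1.25. C3 itself, at 2.11, 1.055 and 1.69 against 0.651, 0.943 and 0.929, was not called, although its groups did not overlap.

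MHC class II genes differed between the APP mice. Cd74 was at 98.3 in APP mouse 1 and at 23.3 and 17.3 in mice 2 and 3, against 1.56, 2.55 and 3.27 in WT (log2 change 3.38, adjusted p = 0.00845 by limma). The class II chains showed the same order, with H2-Ab1 at 30.5, 5.99 and 5.41 against 0.625, 2.21 and 1.38, and H2-Aa at 38.5, 7.44 and 7.12 against 1.67, 2.66 and 2.42. All APP values lay above all WT values, but the changes of 2.27 and 2.11 had adjusted p of 0.0570 and 0.0867 by limma. Of 6 tested class II members, Cd74 was the called one, and the summed level of the list was 208.9 in the highest APP library, 45.6 in the lowest and 11.3 to 17.6 in WT. In class I, H2-D1 rose by 1.54 (58.0, 30.4 and 29.4 against 9.85, 14.6 and 12.6), the called one of 15 tested. H2-D1 and H2-K1 are close paralogs, and reads may be split between them. The beta-2 microglobulin gene B2m was at 195.5, 142.9 and 122.1 against 73.7, 74.5 and 62.6, with a change of 1.09 and an adjusted p of 0.0761 by limma. Among 23 tested interferon-stimulated genes, Oasl2 was called (4.72, 5.66 and 2.85 against 0.980, 1.13 and 0.684) and the median change was 0.68. In 17 of the 23 every APP library lay above every WT library, as for 9.03% of all genes.

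Lysosomal genes were among the most abundant that rose. Of 15 tested cathepsins and cystatins 7 were higher and none lower, with a median of 0.50. Ctsd, an aspartic protease, was at 352.2, 297.3 and 357.0 in APP and 128.7, 125.7 and 109.7 in WT (log2 change 1.46, SE 0.19, adjusted p = 0.00390 by limma). Ctss, a protease that trims the invariant chain Cd74, was at 142.0, 108.3 and 108.9 against 37.3, 37.0 and 36.2. Ctsz rose by 1.54 and Ctsb, at 131.2, 115.9 and 120.1 against 84.3, 89.4 and 83.9, by 0.50, the smallest change among the called genes. Of 37 tested lysosomal enzymes and membrane proteins, 9 were higher. They included the divalent metal transporter Slc11a1 (7.40, 9.44 and 8.04 against 0.370, 0.707 and 0.526), the macrophage sialomucin Cd68 (22.7, 19.5 and 20.8 against 5.53, 5.43 and 4.56), Laptm5 with a change of 1.32, and Hexa, a lysosomal glycosidase chain, with a change of 1.088. The list's median was 0.27, and Lamp1, at 123.8, 120.7 and 120.8 against 97.4, 103.4 and 93.2, was not called. Npc2, which carries cholesterol out of lysosomes, rose by 0.82 as the called one of 21 tested lipid-handling genes. The share called over all genes was 0.449%.

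Receptors for antibodies and microbial products rose as well, 9 of 22 tested, with a median change of 1.10. The inhibitory Fc receptor Fcgr2b was at 6.61, 5.90 and 6.95 in APP and 1.52, 0.637 and 1.02 in WT (1.88), and the activating receptor Fcgr3 rose by 1.49. Ly86, a partner of a Toll-like receptor homologue, rose by 1.96, the lipopolysaccharide co-receptor Cd14 by 1.49 and the leukocyte phosphatase Ptprc (CD45) by 1.62. Among 13 tested chemokines, cytokines and their receptors 5 were higher: Ccl6, Ccl3 (5.47, 2.83 and 4.05 against 0.378, 0 and 0.315), Csf1 and the TGF-beta receptors Tgfbr2 and Tgfbr1, with changes of 1.395 and 0.645. Il1b and Tnf did not reach 1 TPM in any of the 6 libraries and were not tested.

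Calls among astrocyte genes were in the reactive list. Gfap was at 571.6, 459.3 and 580.3 in APP and 129.0, 124.3 and 133.4 in WT (log2 change 2.04, SE 0.30, adjusted p = 0.00701 by limma), the largest absolute level among the genes named as called. Of 24 tested reactive astrocyte genes 6 were higher and none lower, with a median of 0.66. The protease inhibitor Serpina3n was at 44.3, 35.7 and 46.9 against 21.5, 19.2 and 14.2, Vim, another intermediate filament, rose by 0.87, and the glycosyltransferase Ggta1 by 0.94. Cd14 is counted in this list and among the receptors, and microglia express it too. Of 17 homeostatic astrocyte genes none was called, and the median was 0.02. The glutamate transporter Slc1a2 was at 598.9, 599.6 and 641.5 against 587.5, 638.4 and 599.7, and glutamine synthetase, Glul, at 584.4, 629.2 and 595.4 against 574.3, 628.1 and 581.1. For both, the APP and WT ranges overlapped throughout.

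**Figure D3:**
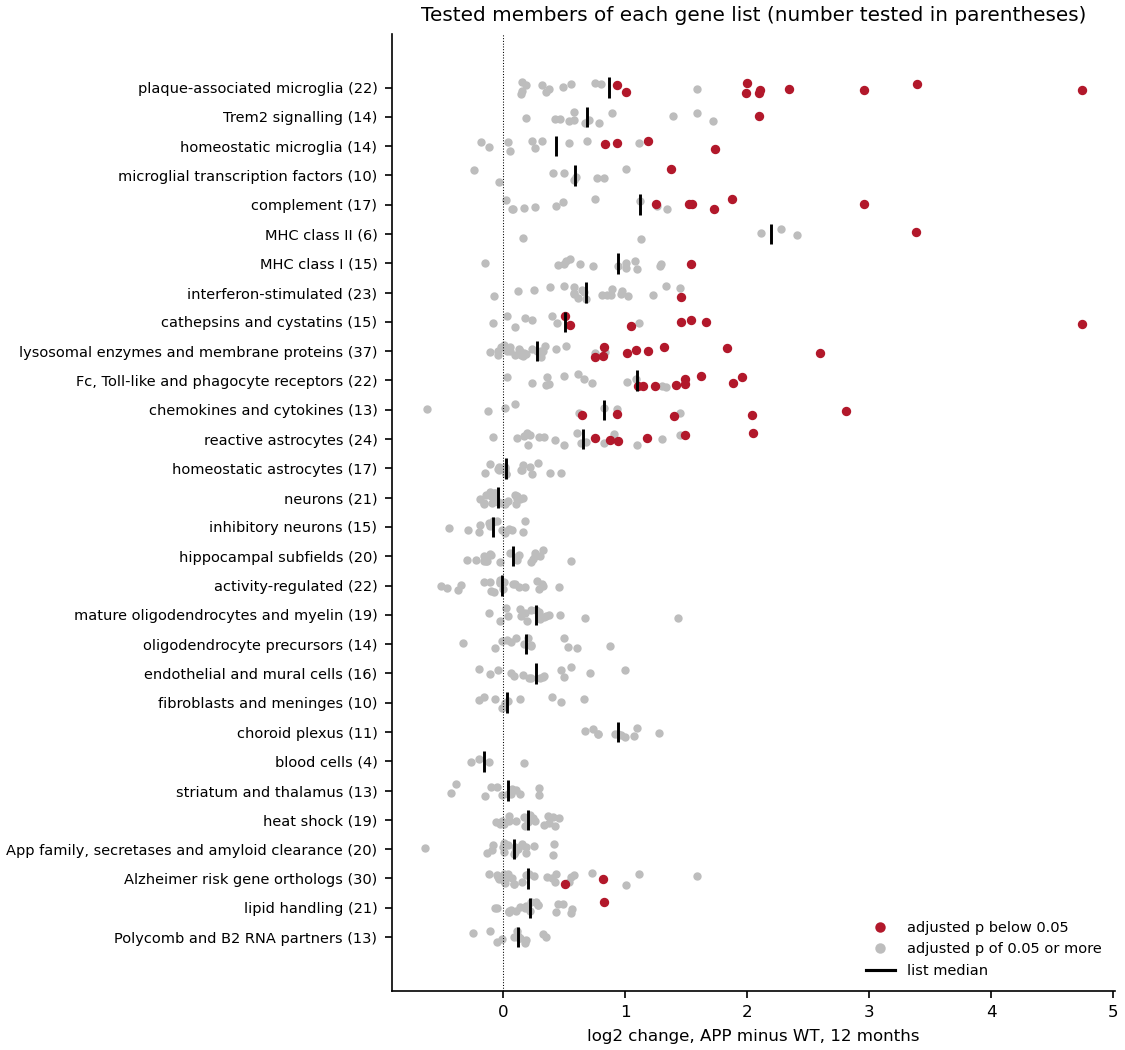
Log2 change (APP minus WT, 12 months) of each tested member of the lists with at least 4 tested members, red where called, with a black bar at the list median. Red points sit in the microglial, complement, MHC, interferon-stimulated, lysosomal, receptor, chemokine and reactive astrocyte lists and in 2 lists that overlap with them (Alzheimer risk orthologs and lipid handling), while neuronal lists centre near 0.

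Neuronal genes held no call. The 21 tested members of the list had small changes, which ran from -0.19 to 0.16, with a median of -0.05. The synaptic vesicle fusion protein Snap25 was at 732.6, 742.0 and 729.4 in APP and 840.0, 855.0 and 774.2 in WT (change -0.16, SE 0.13). Every APP library lay below every WT library for it, as for 6.64% of all genes. Camk2a, a kinase of excitatory synapses, was at 569.8, 512.4 and 588.8 against 575.0, 577.0 and 537.6. None of 15 interneuron genes was called, and the peptides Sst and Cck had changes of -0.01 and -0.45, the latter with overlapping groups (118.3 to 195.8 against 162.8 to 228.1). The 20 genes of hippocampal subfields (Zbtb20, 0.12; Neurod6, -0.16) and the 22 activity-regulated genes (Homer1, 0.01; Vgf, -0.03) also held no call.

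Other cell types held no called gene. The myelin list had a median of 0.27 over 19 tested members, with Mobp at 307.7 to 336.4 in APP and 253.0 to 275.4 in WT and Trf at 0.67 (adjusted p = 0.282 by limma). Its changes were above 0 in 17 of the 19. In 9 of them every APP library lay above every WT library, as for 9.03% of all genes, and in 0 below. The summed level of the myelin list was 1181 to 1288 in APP and 972.4 to 1029 in WT. Oligodendrocyte precursor genes (14 tested; Olig1, 0.17; Bcas1, 0.88), endothelial and mural genes (16 tested; Rgs5, 0.55; Vtn, -0.05) and fibroblast genes (10 tested; Ptgds, -0.20; Igf2, 0.66) were not called either. Haemoglobin genes, a measure of blood, had small changes without a call (Hba-a1, 0.17; Hbb-bs, -0.20). Choroid plexus genes, which mark the secretory epithelium beside the hippocampus, had positive changes in 11 of 11 tested members without a call, and a median of 0.94. In 9 of the 11 every APP library lay above every WT library, as for 9.03% of all genes. Ttr was at 1562, 1559 and 1340 in APP and 396.2, 1242 and 938.0 in WT, and Kl at 25.1, 26.9 and 25.9 against 9.06, 22.9 and 15.3. The summed level of the list was 1462 to 1694 in APP and 428.7 to 1343 in WT, with WT mouse 1 lowest, and the part of this difference in the results was not tested. Without WT mouse 1, 2 or 3, 37, 37 and 30 of the 77 genes were still called. Each of these fits also had 1 mouse less, so these counts cannot show the part of the choroid plexus level of WT mouse 1. Genes of striatum and thalamus were not called (13 tested; Ppp1r1b, 0.14; Calb2, 0.07), with summed levels of 97.8 to 110.7 in APP and 86.9 to 132.1 in WT.

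Markers of blood-derived and border immune cells were low. Of 16 genes of border macrophages and monocytes, 2 passed the filter, Mrc1 at 1.07, 2.04 and 2.61 in APP and 1.062, 2.30 and 1.13 in WT and F13a1 at 0.290, 1.31 and 2.105 against 0.898, 2.01 and 0.409, and neither was called. S100a9, Plac8, Ngp, Chil3 and Ear2 were listed at 0 in all 6 libraries, and Ccr2 was at most 0.347. No lymphocyte gene passed the filter, and the summed level of that list was 0.193 to 3.12 in APP and 0.229 to 0.885 in WT. The highest sum was that of APP mouse 1, which is also the mouse with the highest Cd74 and class II levels, and held Ccl5 at 2.27, Cd3g at 0.436 and Cd8a at 0.295. The part of these cells in the class II levels was not tested. Cd79a, Ms4a1 and Cd3d were among its 7 members listed at 0 in all 6 libraries.

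The 22 called genes outside the lists, chosen for naming after their values were seen, had changes of 0.64 to 1.86. Lag3, an inhibitory receptor, was at 14.1, 11.1 and 10.8 in APP and 2.81, 2.25 and 2.64 in WT. The pore-forming protein gene Mpeg1 was at 33.6, 29.4 and 30.2 against 8.63, 7.87 and 7.18. Subunits of the phagocyte NADPH oxidase, Cyba and Ncf1, rose by 1.39 and 1.10, and the integrin chain Itgb5 rose by 0.90. Ly9, a lymphocyte and macrophage surface receptor, was at 1.94, 2.64 and 1.51 in APP and was listed at 0 in all 3 WT libraries. The long noncoding RNA AU020206 was at 8.38, 5.84 and 6.54 against 1.37, 1.51 and 1.61. Over all 77 genes, the highest APP value was in mouse 1 for 50, in mouse 2 for 12 and in mouse 3 for 15.

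App itself, whose coding sequence is altered in these mice, was at 416.4, 420.6 and 220.2 in APP and 228.6, 270.1 and 260.9 in WT. APP mice 1 and 2 lay above the WT range and mouse 3 below it, and the change of 0.42 (SE 0.21) was not called. The files cannot distinguish the knock-in sequence from the mouse one. Of 20 tested genes of the App family, secretases and amyloid clearance, none was called, and the highly expressed Itm2b and Aplp1 had changes of 0.00 and 0.09. Of 30 tested orthologs of Alzheimer risk genes, 2 were higher, where 0.449% of all genes were called. They were Grn, at 39.5, 42.4 and 43.4 against 22.1, 24.1 and 23.5, and Ctsb. Apoe, the main lipoprotein of the brain, was at 569.7, 551.0 and 566.8 in APP against 331.7, 474.6 and 358.5 in WT. Its groups did not overlap, but the change of 0.55 (SE 0.33) had an adjusted p of 0.814 by limma.

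The change between genotypes was set against that at the younger ages, which involve other mice in both groups. Of the 77 genes, 65 had a positive change at 6 months and 48 at 3 months, where 50.0% and 51.0% of all genes did, and none was called at either age. Their median change was 0.09 at 3 months, 0.30 at 6 months and 1.46 at 12 months. The genes were chosen by their change at 12 months, so a larger median at that age follows in part from the choice. The value at 6 months rests on APP mouse 2 of that age, which was the highest of the 3 APP mice for 73 of the 77 genes. Without it the median change at 6 months was 0.005, and 39 of the 77 genes had a positive change, an alternative added after the data were seen. Gfap, for example, was at 149.1, 352 and 119.7 in APP mice and 134.2, 114.0 and 148.2 in WT mice of 6 months. The difference between the change at 12 months and that at 6 months was itself tested. It was called for 4 genes (0.0233% of those tested), none of them among the 77, whose adjusted p values in that test ran from 0.0675 to 0.818 by limma. An unadjusted p below 0.05 was found for 72 of the 77, against 10.2% of all genes. The change at 12 months, by which the 77 were chosen, is a term of this difference. An excess among them was therefore built in, and the count is a description. The count of 4 genes also rests on single libraries: of 12-month mice, it was 0 without APP mouse 2 or WT mouse 3, 1 without APP mouse 1 and 2 without APP mouse 3 or WT mouse 2, and of 6-month mice, 10 without APP mouse 1 and 46 without APP mouse 2. The same APP mouse 2 of 6 months had Cst7 at 8.77, where the other APP mice of 6 months had 0.657 and 0, and Clec7a at 7.75 against 0.246 and 0.204.

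Against the change at 3 months, 8 genes were called (0.0467% of those tested), 6 with a higher and 2 with a lower change at 12 months. Among them were 4 of the 77: Ccl6, Gpnmb, Serpina3n and Cyth4. Ccl6 was at 0.295, 1.04 and 0.529 in APP and at 0.659 and 1.175 in WT at 3 months, and its change was higher by 3.06 at 12 months (SE 0.49, adjusted p = 0.0375 by limma). Gpnmb was at 0.568, 1.26 and 0.976 against 1.56 and 1.47 at 3 months, a difference in change of 2.73. Serpina3n was lower in APP at 3 months, at 6.63, 10.2 and 9.54 against 15.9 and 17.8, without a call at that age, and its difference in change was 2.06. This count rests on single libraries: it was 0 without APP mouse 1, APP mouse 3 or WT mouse 2 of 12 months, 1 without WT mouse 1 of 12 months, 13 without APP mouse 1 of 3 months and 53 without APP mouse 3 of 3 months. Without WT mouse 1 or 2 of 3 months 8 and 5 genes were called, of which 1 (Nek7) and 0 were among the original 8, so that these calls rest on both WT mice. The WT mice of 3 months differ from those of 12 months in Xist, so that age and the sex-chromosome pattern cannot be told apart in this difference. The WT mice of 6 months share the pattern of the WT mice of 12 months. At 3 months the list for striatum and thalamus had a median change of 1.16, and that for hippocampal subfields one of -0.54. The subfield gene Neurod6 was at 8.12, 38.8 and 74.8 in APP against 72.5 and 86.6 in WT. Slitrk6, of the striatum and thalamus list, was at 17.2, 3.31 and 0.355 against 0.322 and 0.960. The part of tissue content in the difference from 3 months was not tested.

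**Figure D4:**
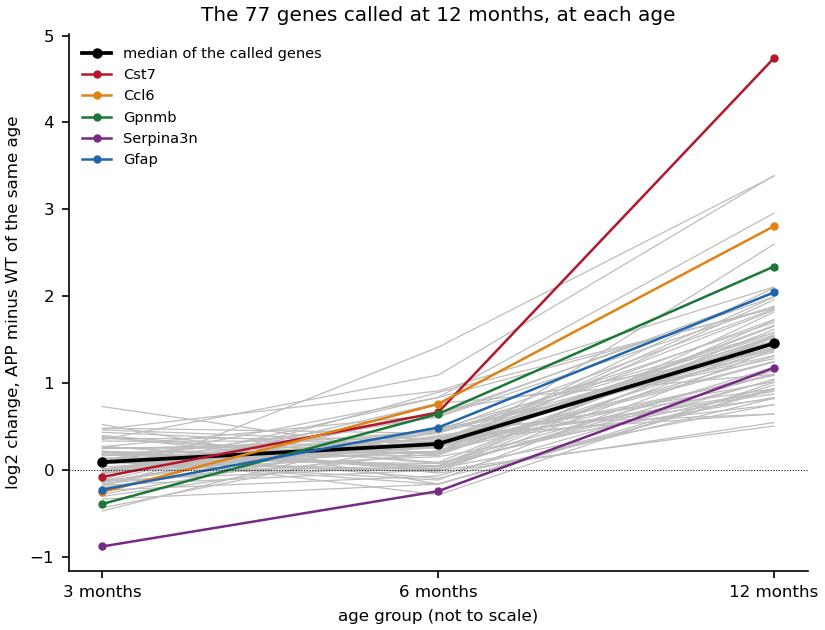
Log2 change (APP minus WT of the same age) of the 77 genes called at 12 months, at 3, 6 and 12 months, in grey, with the median in black and 5 genes in colour. The median goes from 0.09 to 0.30 and 1.46, where the value at 6 months is 0.005 without APP mouse 2 of that age, and Cst7 goes from -0.08 to 0.66 and 4.74.

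Short-RNA libraries of the same groups gave a second readout, counts along B2 RNA, a short noncoding transcript of a repeated element that is known to be cut during the response to stress. It binds the Polycomb enzyme Ezh2, and the study also targeted the heat shock factor Hsf1. The share of B2 counts past position 20 was 81.2%, 89.2% and 83.3% in APP and 85.8%, 82.0% and 85.4% in WT. The 95% Wilson intervals, which cover counting error only, were 78.7% to 83.4%, 85.9% to 91.8% and 79.5% to 86.6% in APP, on 1061, 435 and 432 counts. In WT they were 83.5% to 87.8%, 79.0% to 84.7% and 83.3% to 87.3%, on 1025, 690 and 1199 counts. The mean share of the APP mice was 84.6% ± 4.16 (SD, n = 3) and that of the WT mice 84.4% ± 2.06 (SD, n = 3), a difference of 0.163 percentage points (two-sided exact permutation test, p = 1.0, where 0.1 is the smallest p possible). The groups overlapped, and APP mouse 2 alone lay above the WT range.

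**Figure D5:**
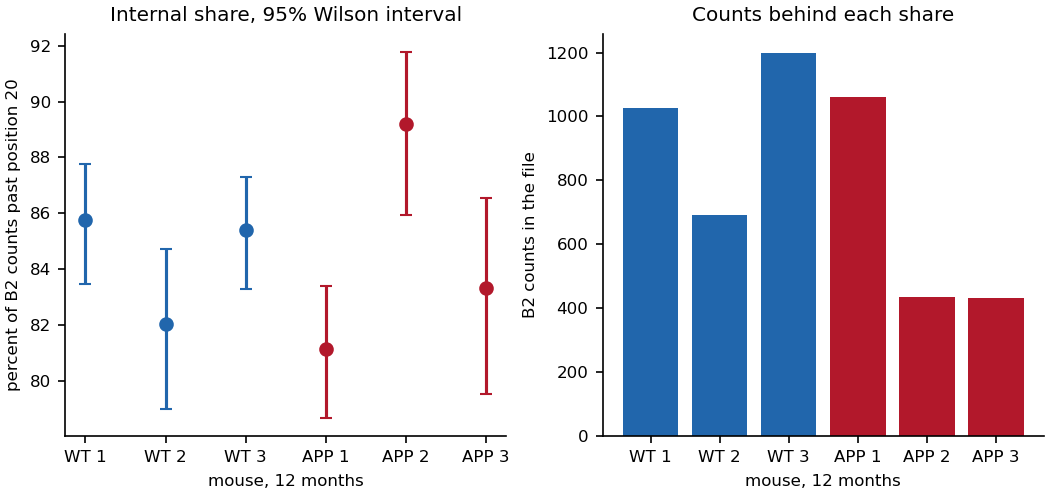
Percent of B2 counts past position 20 in each short-RNA library of 12 months with its 95% Wilson interval (left) and the B2 counts behind it (right). APP shares run from 81.2% to 89.2% around WT shares of 82.0% to 85.8%, and 2 of the APP libraries hold fewer than 500 counts.

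Genes tied to this pathway held no call in the long-RNA libraries. Hsf1 was at 11.7, 13.6 and 11.9 in APP and 11.8, 11.1 and 14.7 in WT (change -0.01, SE 0.15). Ezh2 was at 5.74, 8.95 and 7.79 against 8.48, 5.74 and 5.32 (change 0.18, SE 0.30). None of 13 Polycomb and B2 partner genes was called (Gtf3c1, 0.13; Maf1, 0.13). None of 19 heat shock genes was called either, with a median change of 0.20. The change was above 0 in 16 of the 19. In 4 of them every APP library lay above every WT library, as for 9.03% of all genes. The summed level of the heat shock list was 1722 to 1757 in APP and 1373 to 1586 in WT. The chaperones Hspa8 and Hsp90ab1 were at 495.0 to 506.8 and 487.8 to 521.1 in APP, against 396.0 to 460.0 and 408.9 to 493.7 in WT. The groups did not overlap for Hspa8, while those for Hsp90ab1 did.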

How the data were processed

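Per the labels' protocols, long RNA of mouse hippocampus was fragmented, depleted of ribosomal RNA and made into libraries, and short RNA was size-selected. The submitters' processing notes name FastQC, cutadapt 1.18, BWA 0.7.17, HISAT2 2.1.0, bedtools 2.26.0 and StringTie 1.3.4d, without roles, and the builds mm10 and GRCm38. No source used here gives the strand setting. Per the file headers, the authors deposited TPM, FPKM and Coverage for each gene and library. TPM was used for all levels, and the deposited coverage signal and FPKM for relative depth alone, since reads per gene cannot be recovered from these units. The authors' short-RNA files hold raw counts at B2 positions 2 to 120, per the file headers. No source used here says whether such a count marks a fragment's end.

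TPM was summed for each of 53975 gene identifiers and scaled by median of ratios over 20713 genes above 0 in all 17 mouse long-RNA libraries (factors 0.814 to 1.1 at 12 months). Genes with a mean deposited TPM of at least 1 over the 6 libraries of 12 months were kept (17743), and 595 on X or Y were dropped. One limma 3.58.1 fit (R 4.3.3, trend and robust moderation) on log2(TPM + 1) held all 6 groups. It was tested on simulated data. Genes were called at an adjusted p below 0.05. Differences between ages were contrasts of the same fit. B2 shares were compared by exact permutation (scipy 1.17.1). Figures were drawn with matplotlib 3.10.9.

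The comparison, the 32 gene lists (588 genes, 482 tested, 3 not in the files by symbol) and the tests were chosen with earlier results of these data known. The genes named are the 15 called with the largest change, non-overlapping groups and a higher mean of at least 5 TPM, up to 4 called members a list, the 2 most abundant members of lists with no call, App, Apoe, Hsf1 and Ezh2, and called list members in the age differences. All other genes given with values, most of them list members, were named after their values were seen. Some list members are counted but not reported here by name. Most of the list genes not tested were below the filter. Alternatives covered scaling, pseudocount, filter, X and Y genes, weights, a replicate block, leaving out each mouse, and the controls used.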

Additional observations from a re-analysis of the deposited data

Results flagged for a closer look

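The change between genotypes differed between 12 and 6 months for 4 genes outside the lists, each with a higher change at 12 months (limma, differences in log2 change). The ribosomal protein gene Rps27 differed by 1.90, the processed pseudogenes Gm16418 and Gm11878 by 1.71 and 1.04, and the small nucleolar RNA gene Gm24616 by 1.635. Rps27 was at 14.4, 14.9 and 13.1 in APP and 7.29, 9.08 and 8.0004 in WT at 12 months, and at 6.18, 4.30 and 5.72 against 15.4, 15.2 and 9.98 at 6 months, so that the order of the groups was opposite at the 2 ages. Reads of ribosomal protein genes and their pseudogenes can be split between copies, so these values are uncertain.

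Between 12 and 3 months the change differed for 8 genes. Ccl6 (3.06), Gpnmb (2.73), Serpina3n (2.06), Islr2 (1.68), Shisa6 (1.28) and Cyth4 (1.115) had a higher change at 12 months. Scn1a (-1.27) and Nek7 (-1.35) had a lower one. For Nek7, Scn1a, Islr2 and Shisa6 the libraries of 12 months were close between genotypes while those of 3 months stood apart. The libraries of 3 months also stood apart in the lists for striatum and thalamus and for hippocampal subfields, as given above. The part of this in the values of these genes was not tested. Nek7 was at 14.8, 17.97 and 16.8 in APP against 13.7, 14.9 and 14.3 in WT at 12 months, and at 19.4, 16.7 and 15.3 against 5.35 and 5.08 at 3 months. Scn1a, a neuronal sodium channel gene, was at 63.9, 63.5 and 48.3 in APP against 25.2 and 25.8 in WT at 3 months, and at 27.2, 34.5 and 29.8 against 31.4, 33.2 and 34.1 at 12 months.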

How the results depend on the processing

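At 12 months the 77 genes called became 116 (TPM as deposited), 49 (pseudocount of 0.1), 47 (mean TPM of at least 5), 164 (array weights, 153 higher and 11 lower) and 132 (WT of 3 months as controls), and 22 to 46 with 1 mouse left out. Replicate numbers were not taken to pair the mice (same-number correlations of deviations -0.017, -0.022 and -0.065 at 12 months, 0.047, 0.122 and 0.055 at 6 months, 0.048 and 0.066 at 3 months). At 6 months, but not at 12 months, each was the highest for its APP mouse. With 2 or 3 libraries a group these correlations cannot decide whether same-numbered mice shared a batch. With a replicate block 4 genes were called at 12 months, 3 in the difference from 6 months (0 of the original 4) and 0 in that from 3 months. The 4 calls in the difference from 6 months became 0 (TPM as deposited), 8 (pseudocount of 5), 7 (mean TPM of at least 5) and 8 (array weights), and 0 to 46 with 1 mouse left out. The 8 calls in the difference from 3 months became 75 (TPM as deposited), 4 (pseudocount of 0.1), 13 (X and Y genes kept) and 13 (array weights), and 0 to 53 with 1 mouse left out. On TPM as deposited the median of all genes stood at -0.49 in the difference from 6 months and 0.29 in that from 3 months. Without 1 of the 2 WT mice of 3 months, the other was assumed to vary like the rest. The cause of these shifts was not tested. One named gene reversed, Hbb-bs, at 1.09 with WT of 3 months as controls. The difference in B2 share was 0.538 and 1.27 percentage points for positions past 10 and past 30, and -2.155 to 1.87 with 1 mouse left out. Reads per gene are unknown, so no floor or interval was set for low levels, and B2 totals of 432 to 1199 limit the shares.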

Other observations

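Kept in the test, genes of X and Y gave 9 further calls at 12 months. Gpr34, a microglial receptor on X, was at 18.4, 16.9 and 20.7 in APP, 10.5, 8.52 and 8.14 in WT of 12 months, and 6.53 and 6.90 in WT of 3 months, which match the APP mice in Xist. Msn, a cytoskeletal linker, showed the same order, at 14.8, 13.5 and 13.2 against 8.46, 8.40 and 8.11, with 6.73 and 6.39 in WT of 3 months. Eif2s3x and Kdm5c, which are known to escape X inactivation, were at 48.1 to 49.9 and 17.4 to 19.3 in APP and 31.2 to 34.1 and 11.4 to 14.1 in WT of 12 months, while WT of 3 months had 46.1 to 46.8 and 20.8 to 21.3. The other calls were Xist and 4 Y-linked genes.

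Nnt, a mitochondrial enzyme gene known for a deletion in the C57BL/6J strain, has 2 overlapping entries in the files, between which reads may be split. Whether the genetic background of the APP and WT mice differs at this gene was not tested. The entry ENSMUSG00000025453 was at 3.18, 4.70 and 4.03 in APP and 13.9, 14.1 and 7.07 in WT (change -1.31, adjusted p = 0.0664 by limma). At 6 months its change was -1.40 (adjusted p = 0.0302 by limma). The entry ENSMUSG00000116207 was at 6.56, 3.76 and 3.27 in APP and listed at 0 in all 3 WT libraries of 12 months. This split did not hold in every mouse of the other ages. The entry was at 0, 3.59 and 4.27 in APP mice of 6 months, and at 0 and 3.63 in WT mice of 3 months. The small Cajal body RNA Scarna10 was at 0, 17.6 and 32.7 in APP against 430.4, 324.0 and 300.0 in WT (change -5.35, adjusted p = 0.0863 by limma), while at 3 and 6 months its changes were -0.20 and -0.01. These genes were chosen after their values were seen.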
